A study of Mus musculus with 24 samples.

Results

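The cytosolic ribosomal protein genes encode the proteins of the large (Rpl) and small (Rps) ribosomal subunits that translate nuclear-encoded mRNA. They were chosen by gene symbol: Rpl or Rps followed by a number, with an optional letter and digit, together with Rplp0, Rplp1, Rplp2 and Rpsa. A gene also needed a deposited expression value of at least 1 in at least 1 genotype. Of 24319 genes, 84 symbols matched in either of the 2 deposited tables. In whole liver 79 genes qualified, 47 of the large and 32 of the small subunit. In isolated hepatocytes 73 qualified, 41 large and 32 small, and 71 genes qualified in both. A further 7 symbols ending in -ps, which mark pseudogene names, were left out.

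PolyA RNA was measured in 24 samples from 2-month-old male mice, as 3 biological replicates in each of 8 groups. The groups were whole liver or isolated hepatocytes of 4 genotypes on the C57/BL6 strain: wild type (WT), Alb-Cre+;IkkBf/f (IkkB KO), Alb-Cre+;Shp2f/f (Shp2 KO), and in the Double KO Alb-Cre+;IkkBf/f;Shp2f/f. Cre recombinase driven by the albumin promoter acts in cells that express albumin, chiefly hepatocytes, so other liver cells keep both genes. IkkB is a kinase that activates NF-κB, and Shp2 is a tyrosine phosphatase of growth factor signalling. Controls were labelled as WT C57/BL6, with no floxed allele or Cre in their labels. In liver, Ikbkb, which encodes IkkB, had values of 15.7 (WT), 9.48 (IkkB KO), 14.2 (Shp2 KO), and in the Double KO 6.31. Ptpn11, which encodes Shp2, had 12.5, 10.1, 4.09 and 6.09 in the same order. Each gene was lowest in the genotypes in which it was targeted.

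A ribosome holds 1 copy of nearly every one of these proteins, and their mRNAs are among the most abundant in most cells. Their mRNAs begin with a pyrimidine tract (the TOP motif), through which mTOR and Larp1 control their translation. The genes have left many processed pseudogenes in mammalian genomes, so that short reads from the mRNA can match more than 1 place. The liver depends on ribosome output for the plasma proteins it secretes.

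The tables hold 1 value per gene and genotype, without replicate values or read counts, so no SD is given and depth is unknown. The values are FPKM by the convention of Cuffdiff, fragments scaled to transcript length and library size, and levels of different genes are compared on that per-length scale. A gene was called changed where the authors' Cuffdiff q-value was under 0.05. Differences are of log2(value + 1), which understates the change of low genes. These are bulk samples, in which fewer cells of a type and less RNA per cell cannot be told apart. The hepatocyte markers Ttr (9726 in WT liver, 8481 in WT hepatocytes) and Cps1 (616 and 1493) were high in both tables, while Alb and Serpina1a were listed at 0 in every genotype of both. Apoa1 was listed at 0 in WT and IkkB KO liver and in IkkB KO hepatocytes, and at 5770 or more elsewhere.

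In liver, the sum of the deposited values of the 79 genes stood at 27450 for WT and 22833 for Double KO, with IkkB KO (26022) and Shp2 KO (26290) between them. Taken in the order WT, IkkB KO, Shp2 KO, Double KO, that made 4.65%, 4.30%, 4.75% and 4.42% of the sum over all genes, which itself was 590406, 605738, 553921 and 516284. The Double KO thus had the lowest summed level of ribosomal protein mRNA, but not the lowest share. Without 33 genes listed at 0 in 1 or more genotypes and at 100 or more in another, the shares were 4.90%, 4.51%, 4.86% and 4.79%, so that WT and not Shp2 KO was highest. Among the large subunit genes, WT values ran from 31.4 (Rpl7l1) to 1451 (Rplp1), with a median of 259. Among the small subunit genes they ran from 18.4 (Rps4l) to 931 (Rps29), with a median of 358. The mRNA levels differed widely between genes, with the stalk protein Rplp1 highest and the paralog Rps4l lowest.

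**Figure D1:**
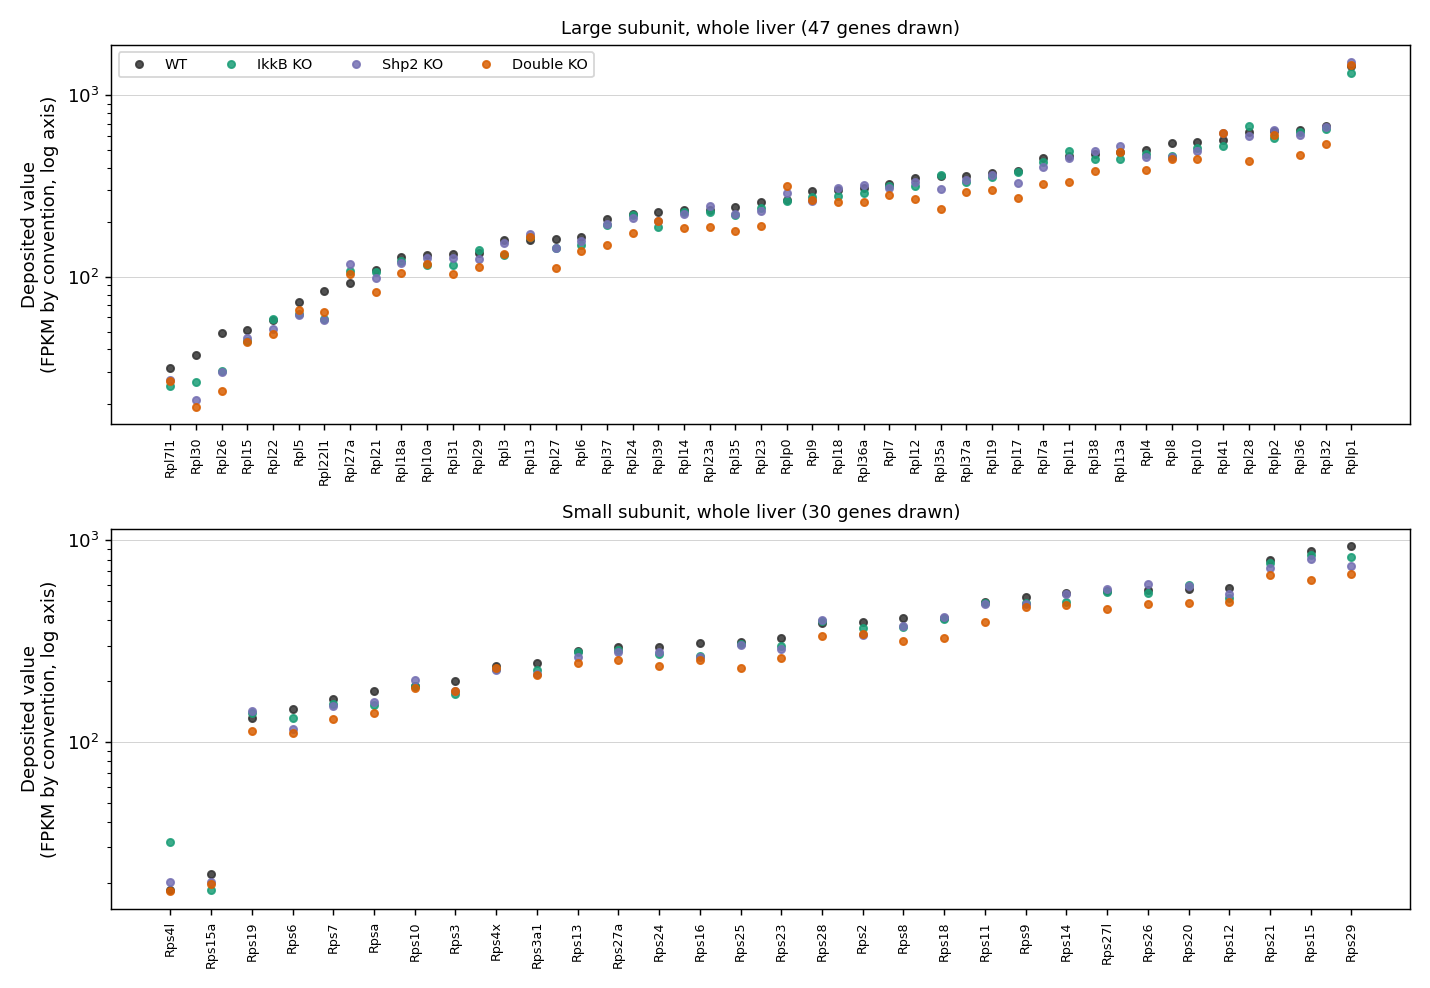
Deposited values in whole liver (FPKM by convention, log axis) of 47 large subunit genes (top) and 30 small subunit genes (bottom), ordered by the WT value; each point is 1 genotype and there are no replicate values. Double KO is the lowest of the 4 points for most genes (61 of the 79 that qualified), and Rplp1 stands above the rest at 1335 to 1530.

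The highest genes of the large subunit in WT liver were Rplp1 (1451), Rpl32 (676) and Rpl36 (641). Rplp1 and Rplp2 (639) encode the acidic stalk proteins that recruit translation factors, and are present in more than 1 copy per ribosome. Rplp0 (264), their anchor on the subunit, was lower than both. The highest genes of the small subunit were Rps29 (931), Rps15 (879) and Rps21 (800). The lowest large subunit genes were Rpl7l1 (31.4), Rpl30 (37.2) and Rpl26 (49.3), and the lowest small subunit genes were Rps4l (18.4), Rps15a (22.1) and Rps19 (131).

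Of the 7 symbols of paralogs, whose names end in l or l1, 4 qualified. Rps27l, the paralog of Rps27, was as abundant in liver as core genes, with 561 (WT), 553 (IkkB KO), 574 (Shp2 KO), and in the Double KO 455. Rpl22l1, the paralog of Rpl22, had 83.4, 58.7, 57.6 and 64.4 in the same order, while Rpl22 itself had 58.2, 58.5, 51.5 and 48.2. WT was the highest genotype for Rpl22l1, with q-values in the authors' deposited table (Cuffdiff) of 0.095 against IkkB KO and 0.070 against Shp2 KO, neither past the threshold. Rps4l had 31.9 in IkkB KO against 18.2 to 20.1 in the other genotypes, with a Cuffdiff q-value in the authors' deposited table of 0.302 against WT. Rpl10l, Rpl39l and Rpl3l, paralogs known from testis or muscle, stayed under 1 in both tables and were not tested by Cuffdiff.

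Liver of the Double KO had lower values than WT for 74 of 79 genes, 42 of 47 large and all 32 small. By Cuffdiff 2 genes fell and 0 rose. Rpl35a, a large subunit protein whose human gene is mutated in Diamond-Blackfan anaemia, had 362 (WT), 363 (IkkB KO), 306 (Shp2 KO), and in the Double KO 237. Double KO lay below the other 3 genotypes, and the difference from WT was -0.61 on the log2 scale with q = 0.016 in the authors' deposited table (Cuffdiff). Rpl27 had 161, 144, 144 and 112 in the same order, a difference of -0.52 with q = 0.042 in the authors' deposited table (Cuffdiff). Of all genes tested in this comparison 18.1% were called, and 6.62% were called lower, so that 2 of 79 lies below the background. At an unadjusted p under 0.05, 17 of the 79 (21.5%) were lower and 0 higher, where 13.1% of all genes tested were lower and 17.3% higher.

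The median difference between Double KO and WT liver was -0.30 over the 79 genes, -0.31 for the large and -0.23 for the small subunit. The median of all genes tested was -0.03, but that of the 743 genes at 100 or more in both genotypes was -0.19, and 72.3% of those were lower. Centred on these abundant genes, the median of the ribosomal protein genes was -0.10. The abundant genes include ribosomal protein genes themselves, of which 69 of 79 were at 100 or more in WT liver. Double KO was the lowest genotype for 61 of 79 genes, against 58.9% of 645 other genes at 100 or more in every genotype. Genes with a higher value in Double KO than in WT were Rplp0, Rplp1, Rpl41, Rpl27a and Rpl13, and none was called. Rplp0, the stalk anchor, had 264 (WT), 263 (IkkB KO), 289 (Shp2 KO), and in the Double KO 318, so that the Double KO was highest. The lowest differences were those of Rpl26 (-1.04), with 49.3, 30.2, 30.1 and 23.5, and of Rpl30, with 37.2, 26.3, 21.1 and 19.3, and neither was called.

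Markers of macrophages, of stellate cells and fibroblasts, and of neutrophils were higher in Double KO liver. The summed values of 13 macrophage markers were 285 (WT), 373 (IkkB KO), 393 (Shp2 KO), and in the Double KO 789, and 12 of the 13 were called higher against WT. Those of 12 stellate cell and fibroblast markers were 162, 165, 196 and 338, with 9 called higher. Neutrophil markers summed to 12.4, 7.47, 10.97 and 30.5, bile duct markers to 65.7, 40.7, 51.5 and 148, endothelial markers to 134, 133, 101 and 138, and lymphocyte markers to 6.77, 9.05, 4.46 and 10.6. No marker of these 6 lists was at 0 in all genotypes. The part of this in the ribosomal protein values was not tested.

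Against IkkB KO liver, 3 large subunit genes fell in the Double KO and 0 rose. Rpl28 had 683 in IkkB KO and 437 in Double KO, beside 630 in WT and 601 in Shp2 KO, with q = 0.011 in the authors' deposited table (Cuffdiff). Rpl11, which with Rpl5 and 5S rRNA binds Mdm2, had 462 (WT), 492 (IkkB KO), 454 (Shp2 KO), and in the Double KO 334, with q = 0.037 against IkkB KO in the authors' deposited table (Cuffdiff). Rpl35a was the third of them, with q = 0.017 in the same authors' deposited table (Cuffdiff). Double KO was the lowest genotype for each of the 3. Of all genes tested 19.0% were called and 7.50% were called lower. The median difference over the 79 genes was -0.20, and it was 0.02 after centring on abundant genes and 0.03 after scaling to equal sums, so its sign depended on the scaling.

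The other liver comparisons called 0 ribosomal protein genes by Cuffdiff. Double KO against Shp2 KO had a median difference of -0.18, with 71 of 79 lower. Of abundant genes, those at 100 or more in both genotypes, 80.1% were lower. Of the 79 genes 0 were called, where 10.8% of all genes were called. At an unadjusted p under 0.05, 6 were lower, beside 7.14% of all genes. That median was 0.02 after centring on abundant genes. IkkB KO against WT had a median of -0.09, with 66 of 79 lower, beside 39.8% of abundant genes. Here 0 were called, where 4.54% of all genes were called. At an unadjusted p under 0.05 there was 1, beside 10.005% of all genes. Shp2 KO against WT had a median of -0.09, with 59 of 79 lower, beside 49.1% of abundant genes. It had 0 called, where 9.33% of all genes were called, and 1 at an unadjusted p under 0.05, beside 17.3% of all genes. This median was 0.004 after scaling to equal sums. Shp2 KO against IkkB KO had a median of -0.004, with 40 of 79 lower, beside 53.8% of abundant genes. It had 0 called, where 10.3% of all genes were called, and 0 at an unadjusted p under 0.05, beside 18.5% of all genes. This median was 0.13 after scaling to equal sums and 0.02 after centring on abundant genes. The sign of the difference between the single knockouts thus depended on the scaling, and the comparisons against WT share the same WT values.

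**Figure D2:**
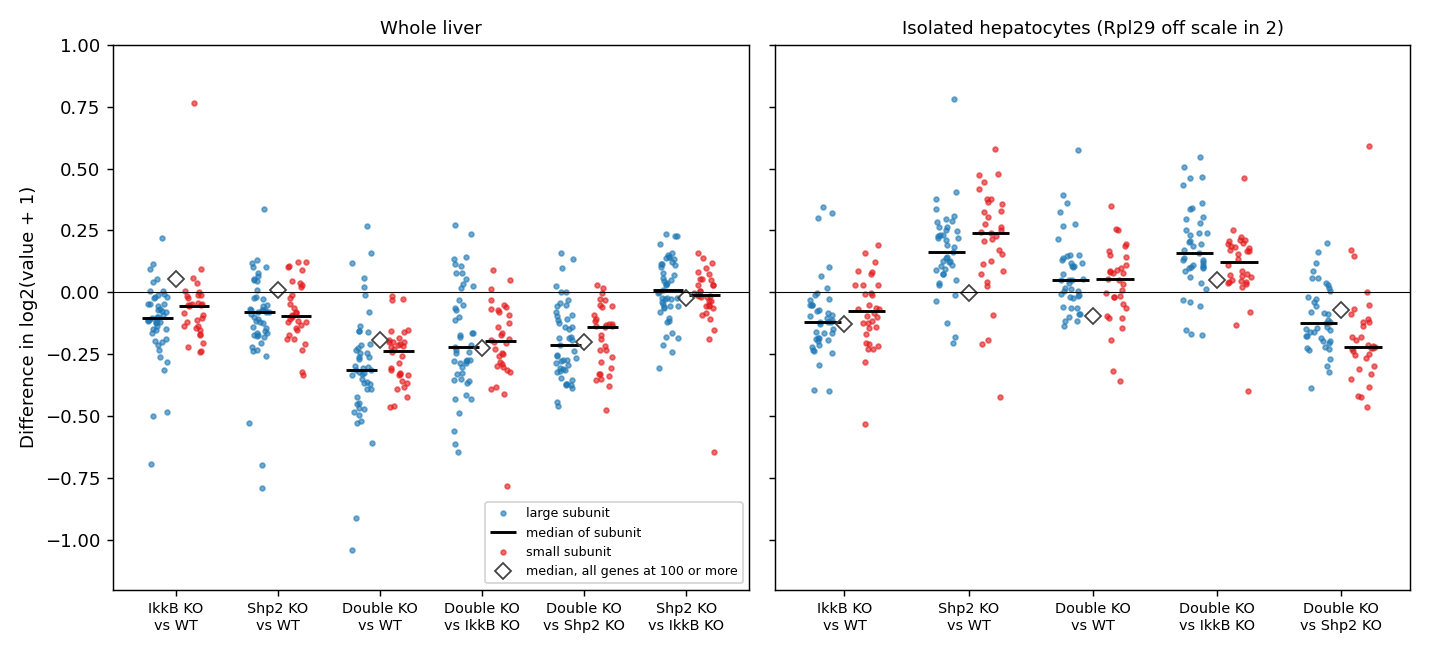
Difference in log2(value + 1) of each ribosomal protein gene (points, large subunit blue, small subunit red) in the 6 liver and 5 hepatocyte comparisons, with the median of each subunit (bar) and the median of all genes at 100 or more in both genotypes (diamond). In liver the Double KO medians against WT are -0.31 and -0.23 beside -0.19 for abundant genes, and in hepatocytes the Shp2 KO medians are 0.16 and 0.24; Rpl29 lies off scale in 2 hepatocyte comparisons.

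The hepatocyte table gave much lower values for many of these genes. The sum over 73 genes was lowest for IkkB KO (7303, or 1.37% of all values), followed by WT (8072, 1.33%), Double KO (8360, 1.61%) and Shp2 KO (9343, 1.67%). Without 47 genes listed at 0 in 1 or more genotypes and at 100 or more in another, the WT share (1.44%) was above that of IkkB KO (1.39%). The tables were made separately and the RNA was extracted with different kits, so levels set across them are a description without a test. Among genes with a WT liver value of at least 10, the median ratio of WT liver to WT hepatocytes was 4.98 for the 79 ribosomal protein genes. It was 1.06 for 71 genes of mitochondrial ribosomal proteins, and 1.03 for all 4738 other genes. A ratio above 32 was found for 22 of 79 ribosomal protein genes (27.8%), and for 32 of the 4738 other genes (0.675%). Of the mitochondrial genes, which are counted among the others, 1 had such a ratio.

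Rpl11 had 462 in WT liver and 0.212 in WT hepatocytes, and Rpl28 had 630 and 0.565. Their hepatocyte values stayed under 1 in all 4 genotypes. Others kept their level: Rpl8 had 548 and 487, Rps3 had 200 and 158, and Rpl4, which lines the exit tunnel, had 501 and 386. Rps4l was the only gene with a higher value in WT hepatocytes (21.5) than in WT liver (18.4). Other symbols under 1 in every hepatocyte genotype included Rpl10a, Rpl12, Rpl21, Rpl24 and Rpl27, with WT liver values from 109 (Rpl21) to 352 (Rpl12). Near the value of 1 that the symbol rule asks for, Rpl24 stayed outside with a highest hepatocyte value of 0.707. Rpl5 came inside only through its Double KO value of 1.13. Cuffdiff left Rpl11 untested in 1 and Rpl27 in 3 of the 5 hepatocyte pairs.

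The share of each coding sequence that recurs elsewhere was computed to describe these genes. Every run of 50 bases (a 50-mer) in a gene's coding sequence was searched, on both strands, in the transcripts of all other genes of GENCODE M21, pseudogene transcripts included. That annotation is of the build GRCm38, not the mm9 of the tables. The first 120 coding bases of 4 genes show the range, from a stretch wholly shared to one with no shared 50-mer. Capitals mark bases inside a 50-mer that also occurs in a transcript of another gene, and the genes lie on chromosomes 4 (Rpl11), 10 (Rps15), 9 (Rpl4) and 7 (Rps3).
Rpl11: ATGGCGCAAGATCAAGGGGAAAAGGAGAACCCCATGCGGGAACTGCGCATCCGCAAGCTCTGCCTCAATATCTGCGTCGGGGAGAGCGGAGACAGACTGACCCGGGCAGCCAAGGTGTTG
Rps15: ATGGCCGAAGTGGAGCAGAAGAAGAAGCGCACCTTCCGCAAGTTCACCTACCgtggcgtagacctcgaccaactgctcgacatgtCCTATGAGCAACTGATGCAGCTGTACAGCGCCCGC
Rpl4: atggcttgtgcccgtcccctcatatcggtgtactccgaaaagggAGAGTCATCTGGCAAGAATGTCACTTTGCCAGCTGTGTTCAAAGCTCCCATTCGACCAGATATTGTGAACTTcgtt
Rps3: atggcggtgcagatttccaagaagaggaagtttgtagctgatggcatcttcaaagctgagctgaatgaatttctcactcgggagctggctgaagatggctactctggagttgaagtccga
All 120 bases of Rpl11 were inside shared 50-mers, 87 of Rps15, 72 of Rpl4 and 0 of Rps3. Over the whole coding sequence the share of 50-mers found elsewhere was 100% for Rpl11 (in 10 other genes), 43.3% for Rps15, 20.3% for Rpl4 and 8.09% for Rps3.

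Ribosomal protein genes shared far more sequence than other genes. All 50-mers were shared in 28 of 78 members with a coding sequence (35.9%), and in 73 of 4430 other genes (1.65%). The median ratio of WT liver to WT hepatocytes was 1.23 over the 3 members with under 10% of 50-mers shared, 1.63 over 9 with 10 to 50%, 3.24 over 23 with 50 to 90%, 4.98 over 15 with 90 to under 100%, and 86.5 over the 28 with all shared. Members with more shared sequence thus had lower hepatocyte values relative to liver. Across the 78 genes, which share 1 library set and are not independent, Spearman's rho between the share and the log2 ratio of hepatocytes to liver was -0.87 and Pearson's r was -0.62. For coding length the rho was 0.02 and for the liver level 0.11, and for the share in 4430 other genes it was -0.20. In those other genes with all 50-mers shared the median ratio was 1.39. Rpl41 (100% shared, over only 26 50-mers, ratio 2.01) and Rpl13a (97.5%, 1.52) were among those that departed from the pattern. Other fully shared members also had ratios far below 86.5, among them Rpl15 (5.43), Rpl27a (8.05) and Rpl38 (11.9). Whether shared sequence contributed to the low hepatocyte values was not tested.

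**Figure D3:**
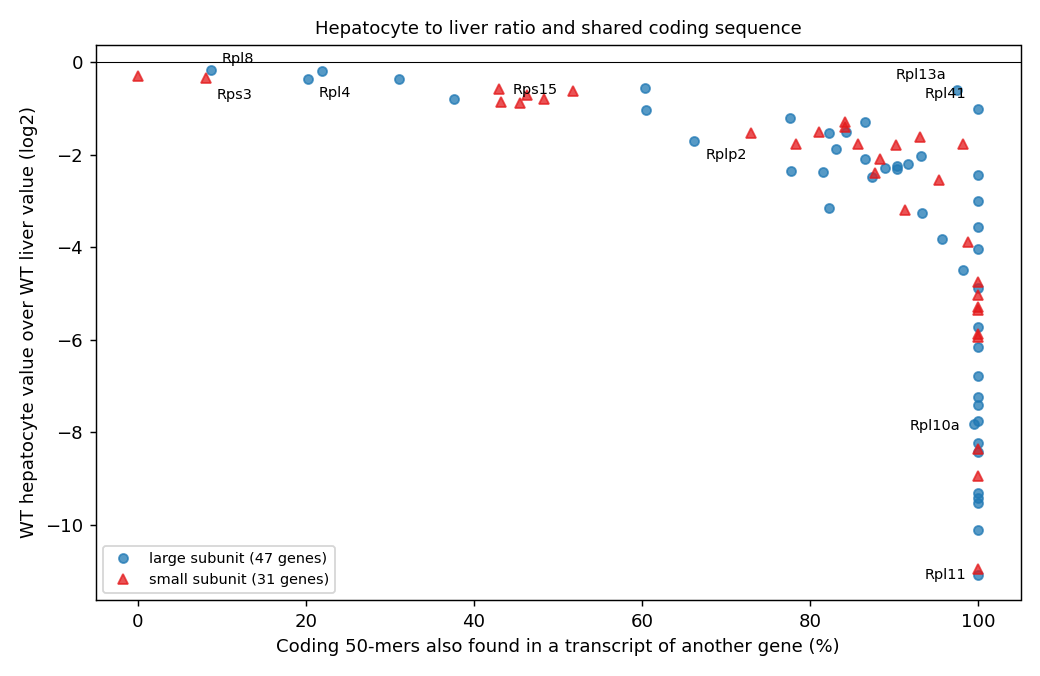
Log2 ratio of the WT hepatocyte value to the WT liver value (y axis) against the share of coding 50-mers that also occur in a transcript of another gene (x axis, %), for 47 large and 31 small subunit genes. Genes with little shared sequence (Rps3, Rpl8, Rpl4) lie near 0, and those at 100% range from Rpl41 (ratio of liver to hepatocytes 2.01) to Rpl11 (2174).

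Names of joint loci also bear on these values. The liver table lists Rps27 jointly with Rps27rt and Rpl34 jointly with Rpl34-ps1, and the hepatocyte table lists Rps27 (2.71 in WT) and Rpl34 (14.9) alone. In liver the entry named Rps27,Rps27rt had 4.99 (WT), 5.16 (IkkB KO), 38.9 (Shp2 KO), and in the Double KO 3.52, and the separate entry Rps27rt had 980, 953, 717 and 649 in the same order. Rps27rt, which the symbol rule does not take, fell in the Double KO, with q = 0.017 against WT and 0.034 against IkkB KO in the authors' deposited table (Cuffdiff). In hepatocytes Rps27rt was 0.0883. Rpl34-ps1 had 434 in WT liver and 153 in WT hepatocytes. Reads of such near-identical copies could have been given to either name, so values of single members of these pairs are uncertain.

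In hepatocytes of the Shp2 KO, 63 of 73 genes were higher than in WT, 35 of 41 large and 28 of 32 small. The median difference was 0.21, 0.16 for the large and 0.24 for the small subunit, beside -0.01 for all genes tested. Over genes at 100 or more, 50.3% were lower, and the median after scaling to equal sums was 0.32. By Cuffdiff 1 gene rose and 1 fell, where 11.7% of all genes were called, 7.13% higher and 4.53% lower. Rpl3, a protein near the peptidyl transferase centre, had 11.2 (WT), 10.6 (IkkB KO), 19.9 (Shp2 KO), and in the Double KO 15.02, with q = 0.0050 against WT in the authors' deposited table (Cuffdiff). The Shp2 KO value was above the other 3. Rpl29, a non-essential large subunit protein, had 28.7, 36.6, 0.182 and 43.2 in the same order, with q = 0.0074 against WT in the authors' deposited table (Cuffdiff). Only the Shp2 KO value of Rpl29 was near 0, and in liver the same gene had 135, 141, 126 and 114. Of the coding 50-mers, 90.3% were shared for Rpl29 (84 other genes) and 95.7% for Rpl3 (26 other genes). The median over members was 91.4%, and whether shared sequence contributed to these 2 calls was not tested. At an unadjusted p under 0.05, 5 genes were higher and 1 lower, beside 10.5% and 6.91% of all genes. In the same comparison 11 of 13 macrophage markers and 7 of 12 stellate cell and fibroblast markers were called higher, and their part in these values was not tested.

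The hepatocyte value of Rpl29 also set the one call between Double KO and Shp2 KO, where it rose from 0.182 to 43.2 with q = 0.0050 in the authors' deposited table (Cuffdiff). The median difference there was -0.16, with 58 of 73 lower, beside 63.5% of genes at 100 or more in both genotypes. Of all genes 6.76% were called, 3.44% higher. IkkB KO hepatocytes had lower values than WT for 58 of 73 genes, beside 75.4% of genes at 100 or more in both genotypes. The median difference from WT was -0.10, and it became 0.03 after centring on these abundant genes. Rps2, a small subunit protein, fell, with 160 (WT), 111 (IkkB KO), 163 (Shp2 KO), and in the Double KO 125 and q = 0.037 against WT in the authors' deposited table (Cuffdiff), where 9.41% of all genes were called and 1.81% were called lower. This call was lost when p-values were adjusted within the comparison. Of the coding 50-mers of Rps2, 84.1% were shared, with 71 other genes, and the part of this in its values was not tested.

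Double KO hepatocytes had 0 called genes against WT and against IkkB KO by Cuffdiff. Against WT the median was 0.05 (-0.04 over the 12 members with under 50% of 50-mers shared), with 46 of 73 higher. Of genes at 100 or more in both genotypes 63.7% were lower. It had 0 called, where 13.6% of all genes were called, and 1 at an unadjusted p under 0.05, beside 20.1% of all genes. Against IkkB KO the median was 0.14, with 64 of 73 higher, where 42.0% of genes at 100 or more in both genotypes were lower. It had 0 called, where 11.4% of all genes were called, and 3 at an unadjusted p under 0.05, beside 17.2% of all genes. The largest rise against IkkB KO was that of Rpl5 (0.55), which qualified only through its Double KO value and so counts as higher by selection. The summed macrophage markers were 114 (WT), 334 (IkkB KO), 276 (Shp2 KO), and in the Double KO 353 in hepatocytes, so that WT was lowest. Those of stellate cells and fibroblasts were 51.2, 183, 93.5 and 109, those of endothelial cells 63.1, 123, 71.0 and 111, of bile duct cells 19.96, 32.5, 45.2 and 62.7, of lymphocytes 1.12, 3.44, 1.54 and 1.90, and of neutrophils 1.28, 3.09, 2.23 and 2.94. WT was the lowest genotype for each of these sums, but 2 of them rested on single genes. Without Spp1, the other bile duct markers summed to 7.30, 7.18, 6.73 and 7.01, with WT highest. In the lymphocyte sum Ptprc made up 0.343, 1.43, 0.817 and 1.24, and without it WT was above Shp2 KO and Double KO. Cd4, another lymphocyte marker, had 0.423, 0.356, 0.102 and 0.104, with WT highest. Of 10 lymphocyte markers, 3 were tested in IkkB KO against WT, and 2 each in Shp2 KO and Double KO. The part of these cells in the ribosomal protein values was not tested.

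**Figure D4:**
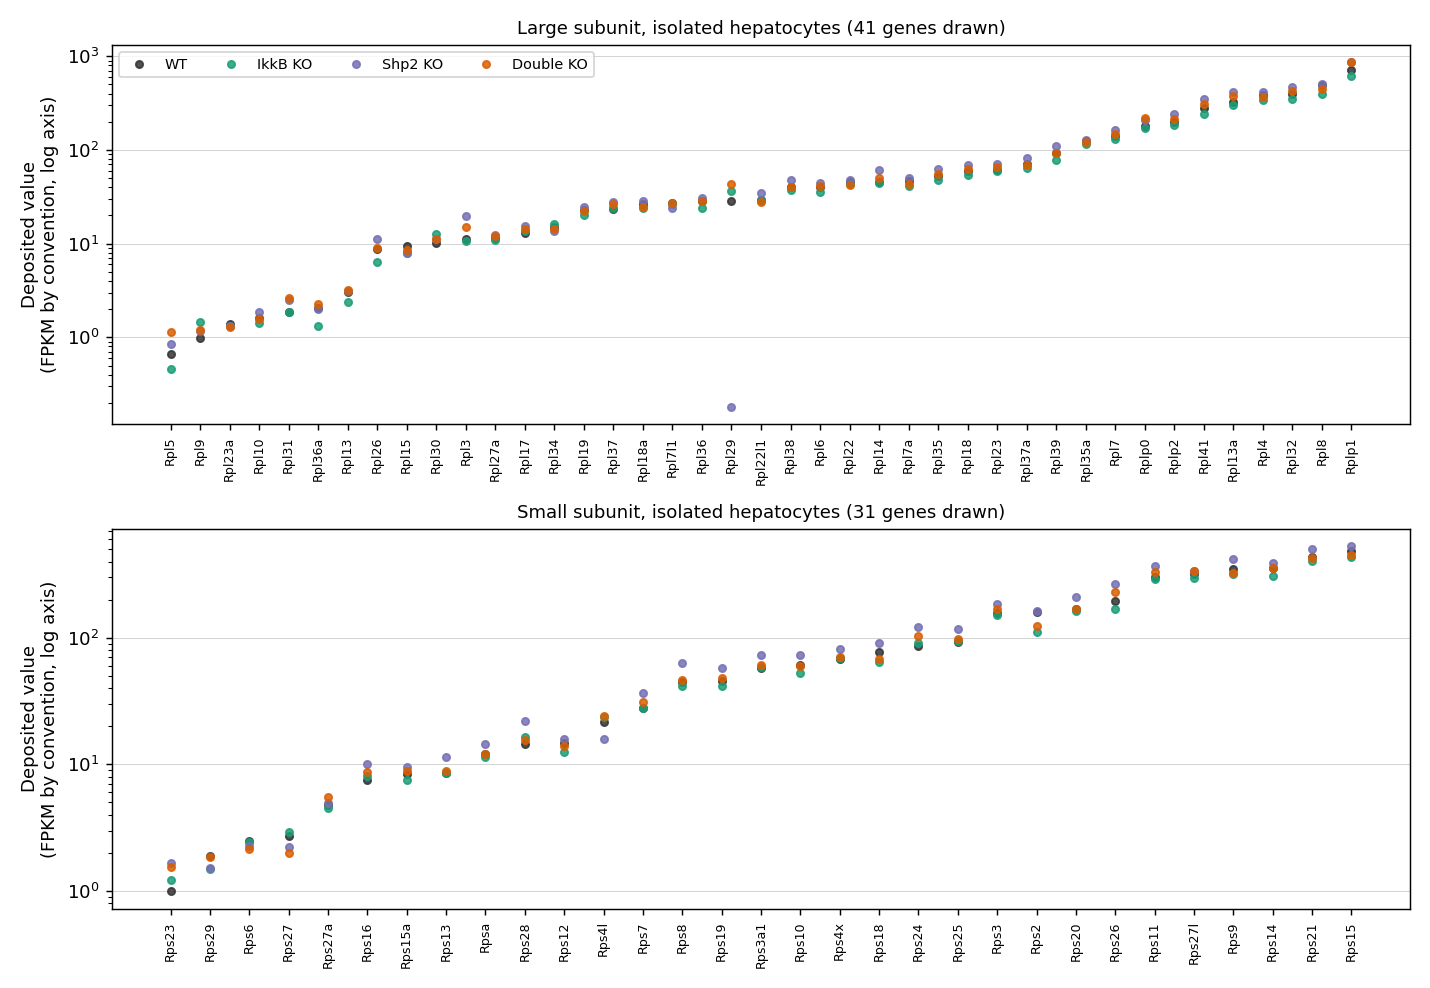
Deposited values in isolated hepatocytes (FPKM by convention, log axis) of 41 large subunit genes (top) and 31 small subunit genes (bottom), ordered by the WT value; each point is 1 genotype. Rplp1 is highest at 621 to 871, and Rpl29 has 1 point far below its others, the Shp2 KO value of 0.182.

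Other genes of the ribosome were described from lists of known function. Of 42 ribosome biogenesis genes, 7 fell in Double KO liver against WT and 0 rose, with a median difference of -0.31, where 6.62% of all genes were called lower. They included Rcl1 (132 in WT to 63.1), Nop2 (15.1 to 9.44), which methylates ribosomal RNA, Heatr1 (4.51 to 2.81) and Nop58 (20.1 to 12.6), a core protein of box C/D particles. Of 4 relatives outside the symbol rule, among them Fau, Gnb2l1 and Rpl36al, 0 were called, with a median of -0.34. Fau, which is made as a fusion with a ubiquitin-like protein, had 517 in WT liver and 19.2 in WT hepatocytes, while Gnb2l1 had 317 and 301. Of 15 translation factors and related genes with TOP mRNAs, 0 were called, with a median of -0.17. Of 77 mitochondrial ribosomal protein genes 2 fell, with a median of -0.19, a count below that share. Among 19 regulators 4 were called, near the 18.1% of all genes: Cdkn1a, a cell cycle inhibitor and target of p53, rose (1.80 to 7.98), while Eif4ebp3, an inhibitor of cap-dependent initiation (92.6 to 27.1), Mycn (0.601 to 0.136) and Trp53 (17.9 to 11.9) fell. In hepatocytes, Double KO against WT had 22 of the 42 ribosome biogenesis genes higher and 20 lower, with a median of 0.02. Only Rcl1 was called there, lower, where 13.6% of all genes were called. Of the 18 regulators tested in that comparison, Eif4ebp3 was called lower and Myc higher. Cdkn1a (11.5 in WT, 14.3 in Double KO), Trp53 (10.3 and 10.4) and Mycn (0.168 and 0.0737) were not called.

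Short motifs were searched in the promoters. RefSeq promoters (GRCm38.p6, 250 bases before to 50 after the start) were found for 64 of the matched symbols, and a motif was counted if any listed start of the gene held it. A CTTTC or CTTTT on the sense strand within 25 bases of the start, a form of the TOP tract, was present in 35.9% of them and in 13.2% of 26961 other genes. CCGGAAG, on either strand of the 300 bases, was present in 40.6% and 9.85%, and CCATNTT in 32.8% and 18.2%. TATAAA, on the sense strand between 40 and 15 bases before the start, was present in 1.56% and 2.41%. Windows of 80 bases, 60 before and 20 from the start, are shown for genes that fell in Double KO liver against WT or IkkB KO, with CTTTC and CCGGAAG in capitals. They are chr4:136053374-136053453 (minus strand, Rpl11), chr11:101442185-101442264 (plus strand, Rpl27), chr7:4792905-4792984 (plus strand, Rpl28) and chr16:33056393-33056472 (plus strand, Rpl35a, 1 of its 3 listed starts).
Rpl11: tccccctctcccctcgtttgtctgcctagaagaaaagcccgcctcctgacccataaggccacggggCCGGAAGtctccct
Rpl27: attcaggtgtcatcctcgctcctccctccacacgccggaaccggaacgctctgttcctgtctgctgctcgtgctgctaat
Rpl28: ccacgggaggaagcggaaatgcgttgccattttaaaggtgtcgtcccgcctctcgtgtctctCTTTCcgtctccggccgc
Rpl35a: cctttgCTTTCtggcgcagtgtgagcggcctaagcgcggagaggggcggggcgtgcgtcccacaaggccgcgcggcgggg
The Rpl28 window held CTTTC and that of Rpl11 held CCGGAAG, each just after the start, that of Rpl35a held CTTTC near its far end, well before the start, and that of Rpl27 held neither in these 80 bases. A match is a description of the letters and not of a bound factor.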

How the data were processed

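Libraries of polyA RNA were made with the Illumina TruSeq v2 kit, per the labels' protocols. The submitters' processing notes name FastQC, Cuffdiff and the build mm9. Which aligner and annotation were used, how strand was handled and which versions ran is not given in the sources used here. The authors deposited 1 Cuffdiff table of genotype pairs for liver (6 pairs) and 1 for hepatocytes (5 pairs). Each gene has 1 deposited expression value for a genotype, and the file headers name no unit (FPKM by the convention of Cuffdiff). The deposited log2 fold change and the deposited test statistic, a score, were not used. Calls rest on the deposited p-value and q-value of Cuffdiff. There were 0 columns of single samples, so no replicate check, depth or interval could be given, and p-values rest on the authors' model of the spread.

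Genes were compared where Cuffdiff tested them and the value was at least 0.1 in 1 of the 2 genotypes, and called at a q-value under 0.05. Differences used a pseudocount of 1. The count of called genes was checked on simulated data, and the Benjamini-Hochberg adjustment on a small example. Medians, sums and shared 50-mers were not checked in this way. Shared 50-mers were counted in coding sequences of the APPRIS principal transcript of GENCODE M21. Scripts ran in Python 3.11.15 with scipy 1.17.1, pandas 2.3.3, matplotlib 3.10.9 and numpy 2.4.6. The members and the gene lists were chosen with earlier results of these data known. Named were all called members, the extremes of level and of difference in each subunit, paralogs, untested members and the called genes of other lists with the smallest q-values. Genes named for their ratio between the tables, for shared sequence or as stalk proteins fall outside that rule and were chosen after their values were seen. Alternatives were other pseudocounts, filters, thresholds and scalings; scaling to equal sums, centring on genes at 100 or more and members with under 50% of 50-mers shared were added after the data were seen. Some genes are not reported here by name and are not drawn in the plots of levels, but stay in all counts and medians.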

Additional observations from a re-analysis of the deposited data

How the results depend on the processing

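Of 77 recomputed medians 61 kept their direction and shifted by less than 0.1, 6 shifted by more and 10 reversed. Of 55 recomputed counts of called genes 46 were equal or within 1.5 times. Most of these 46 were 0 against 0, and stricter settings could not change a count of 0, so they say little about stability. The 9 that moved were all in comparisons with a called member. In liver, Double KO against WT called 0 genes at q under 0.01 and 0 at a log2 difference of at least 1, and 4 with Benjamini-Hochberg adjustment within the comparison; Double KO against IkkB KO called 0 at q under 0.01 and 0 at a log2 difference of at least 1. In hepatocytes, IkkB KO against WT called 0 under each of these 3 settings, and Shp2 KO against WT called 1 (Rpl29) at a log2 difference of at least 1.

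Centred on genes at 100 or more, the liver medians were -0.10 (Double KO against WT), 0.023 (Double KO against IkkB KO), 0.017 (Double KO against Shp2 KO) and 0.021 (Shp2 KO against IkkB KO), and the hepatocyte median of IkkB KO against WT was 0.030. Centred on all genes, Shp2 KO against IkkB KO in liver was 0.0097. With equal sums the liver medians were 0.0038 (Shp2 KO against WT), -0.11 (Double KO against WT), 0.027 (Double KO against IkkB KO), -0.083 (Double KO against Shp2 KO) and 0.13 (Shp2 KO against IkkB KO). The hepatocyte medians with equal sums were 0.077 (IkkB KO against WT), 0.32 (Shp2 KO against WT), 0.26 (Double KO against WT) and -0.057 (Double KO against Shp2 KO). Over members with under 50% of 50-mers shared, Double KO against WT in hepatocytes was -0.042. The scaled medians differ by construction from the values as deposited, and the cause of the other changes was not tested.

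No paired analysis was possible because the tables hold no value per sample. No replicate was left out, since the tables hold none apart, and the depth behind each value is unknown.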

Other observations

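Ribosome biogenesis genes were also described in the comparison of IkkB KO with WT. In hepatocytes, IkkB KO against WT had 33 of 42 such genes higher, a median of 0.15, and 2 called higher, Wdr43 (6.88 in WT, 10.9 in IkkB KO) and Nop58 (11.03 and 16.6), where liver had 38 of 42 lower and 1 called lower, Nop58 (20.1 and 12.7). Over all genes tested the median difference was 0.001 in hepatocytes and -0.01 in liver. The counts of called genes were not above the shares of all genes called, higher and lower together, of 9.41% in hepatocytes and 4.54% in liver. The difference between the tables was not tested. Rcl1, a protein of pre-ribosomal RNA processing, had liver values of 132 (WT), 118 (IkkB KO), 93.0 (Shp2 KO), and in the Double KO 63.1, and hepatocyte values of 103, 98.2, 65.6 and 67.9 in that order. Eif4ebp3 had 92.6, 83.3, 50.7 and 27.1 in liver and 71.5, 85.5, 32.8 and 18.3 in hepatocytes, lowest in the Double KO in both.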
